A study of Sus scrofa with 4 samples.

Results

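Integrins are receptors of an alpha and a beta chain that hold a cell to its matrix. Inside the cell their tails bind talins and kindlins, and the ILK, PINCH and parvin complex, vinculin, tensins and LIM domain proteins tie them to actin stress fibres. FAK, SRC, p130Cas and paxillin pass signals on from these sites, which are called focal adhesions. Valve interstitial cells, the fibroblast-like cells of the heart valve leaflets, carry large focal adhesions when culture turns them into contractile myofibroblasts.

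Genes were taken by their symbols from the comparison of a nitric oxide (NO) donor with untreated control cells, and 52 of the 14804 gene rows matched. The symbols cover integrin subunits, talins (TLN), kindlins (FERMT), KANK proteins, ILK, PINCH proteins (LIMS), parvins (PARV), tensins (TNS), FHL proteins and VCL, ZYX, TES, LPP, PXN, TGFB1I1, PTK2, SRC and BCAR1. They also took in ITGBL1, a secreted protein that resembles a beta subunit, and ITGB1BP1 and ITGB1BP2, which bind a beta chain. All cells were porcine primary aortic valve interstitial cells, cultured for 5 days and run as 4 single-cell libraries on the 10x Chromium system, 1 per group and each aimed at about 2000 cells. The control received no donor, and the NO donor group received detaNONOate, which releases NO, at 150 µM for 5 days. Another group had the same donor for 3 days and then 2 days without it, and the last had the S-nitrosylating agent S-nitrosoglutathione at 200 µM for 5 days. Neither of these latter groups was analysed here. The sources used here do not give the number of pigs or say whether cells were pooled or how doublets were treated, and the summed columns allowed no doublet filter here.

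The table held 3 columns of normalised counts per library, whose making was not stated, with 6486628 to 8067661 counts per column. The labels give a single sample per group, so the columns were read as pieces of that sample; nothing here is checked by replicates or tested for an effect of the donor. Intervals in brackets are exact 95% intervals that cover counting error only, and over all genes the variance between columns was on average 1.39 (NO donor) and 1.37 (control) times that of counting alone. A gene was assessed at 30 or more counts over both libraries and called higher or lower at a log2 ratio of 1 or more, NO donor over control. Levels rest on the authors' size factors; scaling each library to its total count adds 0.60 to every log2 ratio. The assessed genes had a median of 0.02 under the first scaling and 0.61 under the second. Fewer cells with a transcript and less of it per cell cannot be told apart in these sums.

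The defining fibroblast markers of the labelled cell type were present, though 8 of 9 were called lower with the donor, beside 18.4% of all assessed genes. The levels of these markers summed to 195032 for the control and to 41069 for the NO donor. Of 8 endothelial markers PECAM1 and ERG had a row, and their normalised counts together summed to 701 in the control and 282 with the donor. A row was present for 3 of 8 leukocyte markers, which summed to 9.63 in the control and 17.1 with the donor. Of 4 platelet markers, ITGA2B and GP9 had one, and together they summed to 35.7 in the control and 16.9 with the donor. The other markers of these types, and the 4 epithelial markers, had no row, so they could not be assessed. The 4 contractile markers ACTA2, TAGLN, MYH11 and CNN1 were all called lower, beside the same 18.4%. The summed level of these 4 was 89293 without and 2679 with the donor. For ACTA2 the variance between columns was 32.3 (NO donor) and 152 (control) times that of counting alone. The part of differences in cell state or makeup in the results below was not tested.

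The members as a set were mostly lower with the NO donor, while the integrin chains were mixed and some were higher. Of 45 assessed members 26 were called lower, where 18.4% of all assessed genes were, and 5 were called higher, where 13.2% were. Their median log2 ratio was −1.27. With each library scaled to its total, 19 were lower against 10.5% of all genes and 10 were higher against 33%. The median was then −0.68. The median of the members lay below that of all genes. The gap is the same under either scaling by construction, because total count scaling shifts every gene alike. The 26 assessed members not named as integrins held 17 of the lower calls and 1 of the higher, beside 18.4% and 13.2% of all genes. Scaled to totals they held 14 and 5, beside 10.5% and 33%. The columns of the libraries did not overlap for 42 of the 45, as for 77% of all assessed genes, and the 3 exceptions were ITGB8, PARVB and FERMT3. In the authors' deposited table, whose p-values rest on the columns, 30 of 51 members had an adjusted p below 0.05 and were lower, against 26.4% of its tested genes, and 8 were higher, against 24.7%. The members just past the size rule were TNS2 and ITGB1, at −1.04 and −1.08, and those just short of it LIMS1 and TES, at −0.90 and 0.91.

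**Figure D1:**
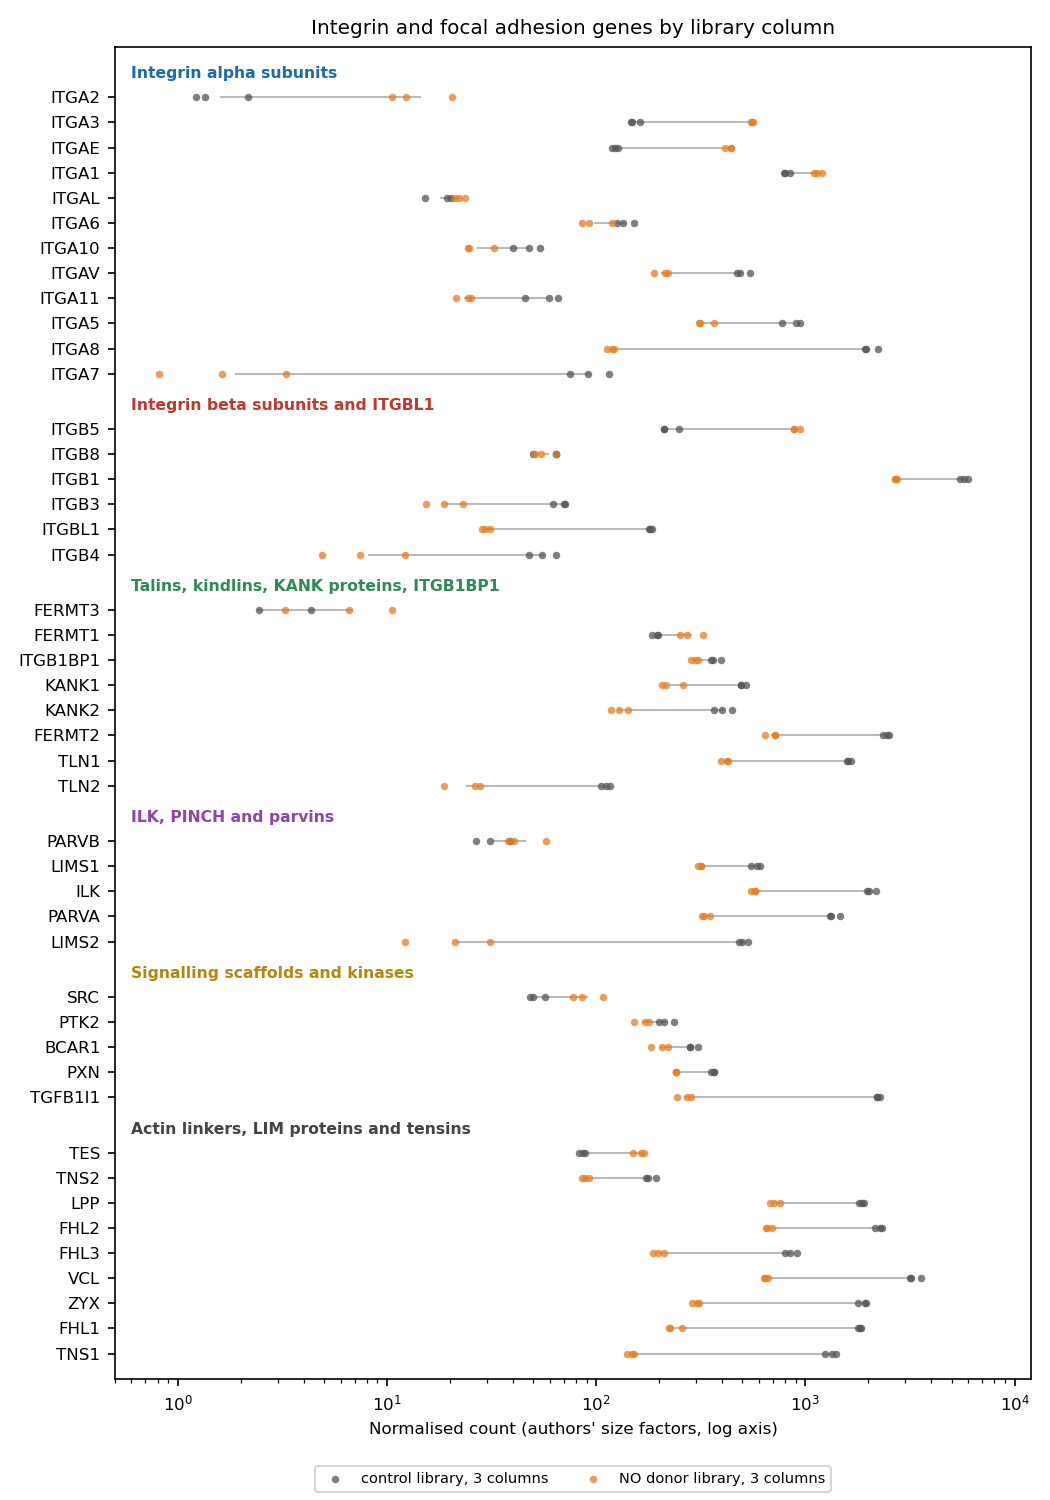
Normalised counts (x axis, log scale, authors' size factors) of the 45 assessed members, with 1 point for each of the 3 columns of the control library (grey) and of the NO donor library (orange); a grey line joins the library values, and the 0 of FERMT3 in control column 1 is not drawn. Most actin linkers and ILK complex genes lie further left with the donor, while ITGA2, ITGA3, ITGAE and ITGB5 lie further right.

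Among the alpha chains, which choose the ligand, 5 of 12 assessed were called lower and 3 higher, beside 18.4% and 13.2% of all genes. Scaling by total counts gave 2 and 4, beside 10.5% and 33%, so the count of higher alpha chains was then near that of all genes. All 3 assessed alpha chains of receptors for RGD, the adhesive motif of fibronectin and vitronectin, were called lower, by 1.27 to 4.10 on the log2 scale; under total count scaling only ITGA8 was still past the rule. ITGA8 (Sscrofa11.1 chromosome 10, 46132887 to 46303659), whose product with the beta 1 chain is a receptor of smooth muscle and myofibroblasts, stood at normalised counts of 2226, 1921 and 1950.0 in the control columns. In the NO donor columns it stood at 119, 113 and 122. The columns did not overlap, and ITGA8 was 17.2-fold lower (15.6 to 19.0). The variance between control columns was 10.9 times that of counting alone for ITGA8, 8.30 times for ITGA5, 9.43 times for ITGB1 and 13.4 times for VCL, which their intervals do not cover.

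ITGA5, the alpha chain of the classical fibronectin receptor, had 900.0, 943 and 769 in the control and 313, 311 and 365 with the donor. It was 2.63-fold lower (2.45 to 2.82). ITGAV, which pairs with several beta chains in vitronectin receptors, had 545, 471 and 486 in the control and 188, 213 and 219 with the donor, 2.41-fold lower (2.20 to 2.64). Both were lower in each column of the NO donor library, but scaling by total counts put them at −0.80 and −0.68, short of the size rule. ITGA2B, the platelet fibrinogen receptor chain, had 11 counts with the donor and 18 without it, too few to assess.

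The 3 laminin receptor chains had 3 different outcomes. ITGA7 (chromosome 5, 21126565 to 21150875), the laminin receptor chain of muscle, had 116, 91.1 and 74.5 in the control columns and 1.63, 0.811 and 3.29 with the donor. With 230 counts against 7 it was 48.5-fold lower (23.2 to 122), the lowest ratio of any assessed member. ITGA3 (chromosome 12, 26234769 to 26269327), a laminin receptor chain best known from epithelia, had 147, 163 and 148 in the control and 547, 565 and 554 with the donor. It was 3.64-fold higher (3.26 to 4.07), with no overlap of columns. ITGA6, the third of them, had 152, 125 and 134 in the control and 85.5, 119 and 92.1 with the donor. Its log2 ratio was −0.46 (−0.68 to −0.25) and turned to 0.13 under total count scaling, so it had no direction that both scalings shared.

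Among the collagen receptor chains, ITGA1 had 845, 786 and 796 in the control and 1103, 1195 and 1142 with the donor. The difference, 1.42-fold higher (1.35 to 1.5), was short of the size rule, though at total count scaling its log2 ratio of 1.10 was past it. PELO, a ribosome rescue factor that lies within the ITGA1 span on the same strand, had a log2 ratio of 0.37 (0.28 to 0.46); the sources used here do not give how reads of the pair were assigned. ITGA2 (chromosome 16, 32336240 to 32440311), the collagen receptor chain of platelets and epithelia, had 1.35, 1.21 and 2.16 in the control and 20.4, 10.5 and 12.3 with the donor. That is 53 counts against 4 and 8.98-fold higher (3.31 to 34.2), a wide interval. MOCS2, a molybdenum cofactor gene that overlaps ITGA2 on the other strand, had −0.39 (−0.51 to −0.27). ITGA11, the collagen receptor chain of fibroblasts, had 45.7, 59.5 and 65.9 in the control and 25.2, 24.3 and 21.4 with the donor, 2.44-fold lower (1.86 to 3.22), and moved to −0.69 log2 units under total count scaling. ITGA10, a collagen receptor chain of cartilage, had 53.8, 40.1 and 47.5 in the control and 24.4, 32.5 and 24.7 with the donor, a log2 ratio of −0.79 (−1.19 to −0.39). The 4 collagen receptor chains thus held 1 called lower and 1 called higher, beside 18.4% and 13.2% of all genes. Under total count scaling these counts were 0 and 2, beside 10.5% and 33%.

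The alpha chains known from leukocytes were ITGAE and ITGAL. ITGAE (chromosome 12, 49810050 to 49878142), which with the beta 7 chain binds E-cadherin on epithelium, had 122, 128 and 119 in the control and 439.8, 443 and 414 with the donor. It was 3.52-fold higher (3.11 to 3.99), and its known partner ITGB7 had 10 counts with the donor and 9 in the control. GSG2, the gene of the mitotic kinase haspin, overlaps ITGAE on the other strand and had a log2 ratio of −2.99 (−3.97 to −2.12), the opposite direction. ITGAL, a chain of the leukocyte receptor LFA-1, had 20.2, 19.4 and 15.1 in the control and 21.2, 23.5 and 22.2 with the donor, with an interval that held 0 at 0.30 (−0.24 to 0.86). ITGB2, the partner of ITGAL, had 10 counts with the donor and 2 without it, and in the same order the leukocyte markers CD68, AIF1 and TYROBP had 24 and 4, 35 and 1, and 4 and 19. The part of such cells in the ITGAE result was not tested. ITGA4 and ITGA9, with 4 and 6 and with 4 and 1 counts, were too low to assess.

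The beta chains, through which talins and kindlins act, were led by opposite differences of ITGB1 and ITGB5. ITGB1 (chromosome 10, 56078393 to 56130608), the common partner of many alpha chains, had 5998, 5473 and 5742 in the control and 2688, 2735 and 2692 with the donor. It was 2.12-fold lower (2.06 to 2.17) and lower in all column pairings, but its log2 ratio of −1.08 moved to −0.49 under total count scaling. ITGB5 (chromosome 13, 135468111 to 135587483), which pairs with ITGAV in a vitronectin receptor, had 209.9, 249 and 212 in the control and 884, 881 and 943 with the donor. It was 4.04-fold higher (3.69 to 4.42), whereas ITGAV was lower. ITGB5 was the only beta chain called higher under either scaling.

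ITGB3, the other main vitronectin receptor beta chain, had 70.0, 62.0 and 71.3 in the control and 18.7, 15.4 and 23.0 with the donor, 3.56-fold lower (2.68 to 4.78). ITGB4, which pairs with ITGA6 in hemidesmosomes of epithelia, had 55.2, 64.4 and 47.5 in the control and 12.2, 4.87 and 7.40 with the donor, 6.79-fold lower (4.55 to 10.4). Both stayed past the size rule under total count scaling. ITGB8, whose receptor with ITGAV activates latent TGF-beta, had 64.6, 64.4 and 49.7 in the control and 54.6, 64.1 and 51.0 with the donor. Its columns overlapped, and the log2 ratio of −0.06 (−0.37 to 0.25) turned to 0.54 under total count scaling. ITGBL1, the secreted beta-like protein, had 186, 179.8 and 178 in the control and 29.3, 28.4 and 31.2 with the donor, 6.11-fold lower (4.94 to 7.60).

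Shares of counts within a library do not depend on the scaling between libraries. Each share is compared between libraries and not between genes. The 15 alpha chains together took 0.0552% of all control counts and 0.0515% of NO donor counts, and the 7 beta chains 0.0702% and 0.0638%. Such a share of all counts amounts to total count scaling. With the authors' size factors the alpha chain levels summed to 4833 in the control and 2982 with the donor. Those of the beta chains summed to 6140 and 3697. Within those sums the makeup differed. ITGA8 held 41.9% (41.0 to 42.7) of alpha chain counts in the control and 3.95% (3.59 to 4.33) with the donor. ITGA1 held 16.7% (16.0 to 17.4) and 38.5% (37.6 to 39.4), ITGA3 3.16% (2.85 to 3.48) and 18.6% (17.9 to 19.4), and ITGAE 2.54% (2.27 to 2.84) and 14.5% (13.8 to 15.2). ITGA5 went from 17.9% (17.2 to 18.6) to 11% (10.5 to 11.6). Of beta chain counts, ITGB1 held 93.3% (92.9 to 93.7) in the control and 73.2% (72.4 to 73.9) with the donor. ITGB5 held 3.28, 4.21 and 3.46% in the 3 control columns and 24.1, 23.8 and 25.3% in the NO donor columns, with no overlap.

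**Figure D2:**
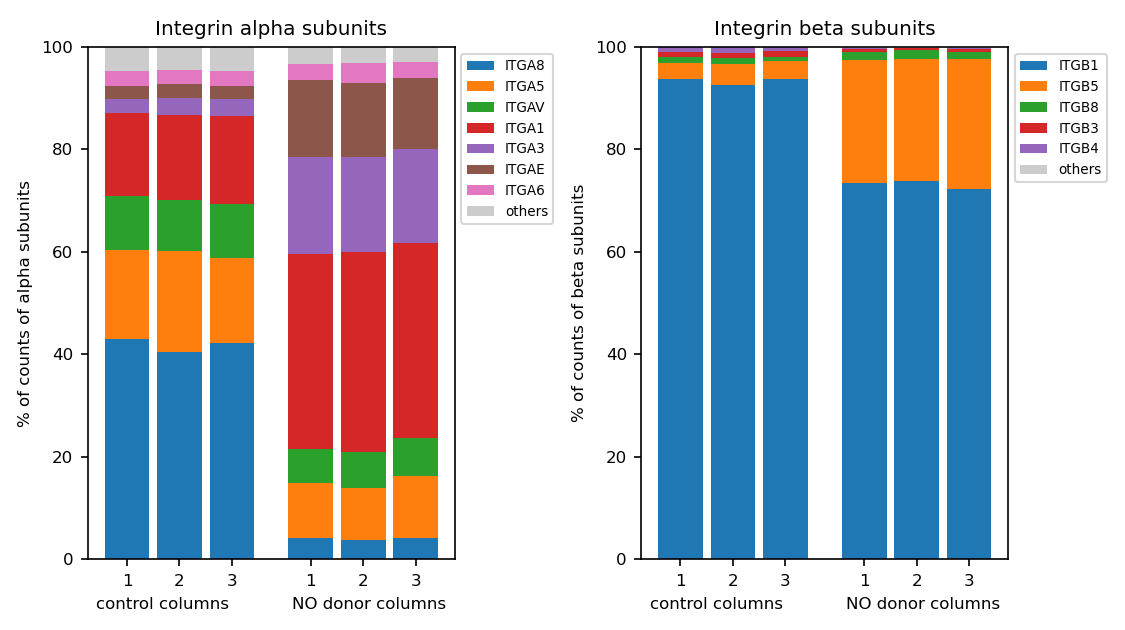
Share of alpha chain counts (left) and beta chain counts (right) taken by each integrin subunit, in %, in each of the 3 columns of the control and NO donor libraries; grey holds the remaining subunits of the 15 alpha and 7 beta chains. The ITGA8 block shrinks from between 40.4 and 42.9% to between 3.69 and 4.11%, and the ITGB5 block grows from at most 4.21% to at least 23.8%.

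Talins and kindlins switch integrins on by binding the beta tail. TLN1, the talin of most cells, had 1651, 1602 and 1582 in the control and 397, 424 and 423 with the donor, 3.88-fold lower (3.66 to 4.12). CREB3, an opposite strand gene that overlaps TLN1, had a log2 ratio of 0.21 (0.09 to 0.33). TLN2, the second talin, had 105, 112 and 117 in the control and 27.7, 18.7 and 26.3 with the donor, 4.61-fold lower (3.62 to 5.92). The intervals of the talin folds overlapped, and TLN1 held 93.5% (92.7 to 94.2) of talin counts in the control and 94.5% (93.3 to 95.5) with the donor, intervals that overlapped.

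The kindlins diverged. FERMT2, kindlin-2, the form of fibroblasts and muscle, had 2499, 2450.4 and 2353 in the control and 713, 642 and 714 with the donor, 3.52-fold lower (3.36 to 3.69). FERMT1, kindlin-1, the form of epithelia, had 198, 185 and 194 in the control and 325, 252 and 270.4 with the donor. The variance between its NO donor columns was 6.21 times that of counting, and the log2 ratio of 0.56 (0.40 to 0.72) was short of the size rule and reached 1.15 under total count scaling. FERMT1 held 7.33% (6.71 to 7.98) of kindlin counts in the control and 28.9% (27.4 to 30.4) with the donor. FERMT3, kindlin-3, the form of blood cells, had 25 counts with the donor and 6 in the control, 2.82-fold higher (1.13 to 8.42). Its columns overlapped, and without control column 1 its log2 ratio was 0.99, short of the size rule.

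KANK proteins bind talin at the rim of adhesions. KANK2 had 401, 447 and 364 in the control and 117, 141 and 129 with the donor, 3.12-fold lower (2.79 to 3.48), and KANK1 519, 489.6 and 494 and 207, 259.6 and 215, 2.20-fold lower (2.01 to 2.40). Both were lower with no overlap of columns, but under total count scaling KANK1 was at −0.54. ITGB1BP1, the product of which keeps talin off the beta 1 tail, had a log2 ratio of −0.32 (−0.45 to −0.19), which turned to 0.28 under total count scaling. ITGB1BP2, a muscle protein that binds the same tail, had 10 and 7 counts, too few to assess. Among other genes that overlap members on the opposite strand, TRPT1 (FERMT3) had a log2 ratio of 0.09 (−0.14 to 0.31), ASAP2 (ITGB1BP1) −0.45 (−0.60 to −0.29), and a pseudogene within the ITGAV span −1.74 (−2.01 to −1.48).

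The ILK, PINCH and parvin complex links beta tails to actin. ILK (chromosome 9, 3145647 to 3152097), the pseudokinase at its core, had 2167, 2005 and 1961 in the control and 576, 547 and 575 with the donor, 3.60-fold lower (3.42 to 3.79). TAF10, an opposite strand gene that overlaps ILK, had −0.20 (−0.35 to −0.06). PARVA, alpha-parvin, had 1458, 1323 and 1315 in the control and 322, 328 and 350.1 with the donor, 4.08-fold lower (3.82 to 4.36). ILK and PARVA were lower in every column and under both scalings. PARVB, beta-parvin, had 30.9, 26.7 and 38.9 in the control and 57.8, 40.6 and 37.8 with the donor. Its columns overlapped, and its log2 ratio of 0.48 (0.09 to 0.88) became 1.08 under total count scaling.

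Both PINCH genes were lower, to different extents. LIMS2 (chromosome 15, 59672508 to 59709380), PINCH-2, had 534, 497 and 483 in the control and 12.2, 21.1 and 31.2 with the donor, 23.4-fold lower (18.6 to 29.8). The variance between its NO donor columns was 5.15 times that of counting, which the interval does not cover. LIMS1, PINCH-1, had 548, 588 and 609 in the control and 316, 307 and 316 with the donor, 1.86-fold lower (1.72 to 2.02). LIMS1 was short of the size rule, at −0.90 or −0.30 under total count scaling. LIMS2 held 46.3% (44.4 to 48.2) of PINCH counts in the control and 6.42% (5.11 to 7.93) with the donor. RSU1, which binds PINCH-1 and is not among the members, was 2.73-fold lower (2.58 to 2.90), or −0.85 log2 units under total count scaling, short of the size rule. It was named for its role after its value was seen.

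Of the 5 signalling genes 1, TGFB1I1, was called lower, beside 18.4% of all genes, and 4 were short of the size rule. Under total count scaling 1 was lower and 1 higher, beside 10.5% and 33%. PTK2, the gene of FAK, had 211, 234 and 199.9 in the control and 172, 152 and 178 with the donor. BCAR1, the gene of p130Cas, had 279.8, 281 and 308 and 183, 221 and 205, and PXN, paxillin, 365, 355 and 364 and 240.2, 242 and 240.0. The log2 ratios of these 3, −0.36, −0.52 and −0.59, were all short of the size rule and turned to 0.24, 0.08 and 0.01 under total count scaling. SRC, the kinase that works with FAK, had 48.4, 57.1 and 49.7 in the control and 108, 85.2 and 77.3 with the donor. It lay above its control columns without overlap, at 0.80 (0.50 to 1.11) or 1.40 under total count scaling. TGFB1I1 (chromosome 3, 17093275 to 17099204), the gene of Hic-5, a paxillin relative of smooth muscle and myofibroblasts, had 2201, 2272 and 2199.6 in the control and 283, 272 and 243 with the donor. It was 8.35-fold lower (7.80 to 8.95), where paxillin itself was 1.5-fold lower (1.37 to 1.65).

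Of the actin linkers and LIM domain proteins, 6 of 7 assessed genes were called lower, beside 18.4% of all genes, with a median log2 ratio of −2.10; scaling by total counts left 5 lower, beside 10.5%, and put TES past the rule as higher, as 33% of all genes were. VCL (chromosome 14, 76700143 to 76811875), vinculin, which is recruited to talin under tension, had 3585, 3189 and 3162 in the control and 634, 644 and 663 with the donor, 5.09-fold lower (4.87 to 5.33). ZYX (chromosome 18, 6861072 to 6870256), zyxin, which gathers on stress fibres under strain, had 1919.6, 1944 and 1780.4 in the control and 310.3, 288 and 302 with the donor, 6.25-fold lower (5.86 to 6.68). LPP, a zyxin relative, had 1897, 1866 and 1799 in the control and 679, 707 and 754 with the donor, 2.59-fold lower (2.47 to 2.72). In all 3 the columns were far apart, though LPP moved to −0.78 under total count scaling. TES, testin, which binds zyxin, went the other way, with 86.1, 82.6 and 88.6 in the control and 164, 150.1 and 170.1 with the donor. Its log2 ratio was 0.91 (0.68 to 1.14), short of the size rule, and 1.51 under total count scaling.

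The FHL proteins, LIM-only proteins of muscle and fibroblasts, were all called lower, beside 18.4% of all genes. Under total count scaling FHL1, FHL2 and FHL3 stayed past the size rule at −2.35, −1.15 and −1.51, beside 10.5% of all genes. FHL1 had 1832, 1842 and 1775 in the control and 226, 222 and 257 with the donor, 7.72-fold lower (7.18 to 8.31). FHL3 had 796, 915 and 846 and 187, 198 and 211, 4.30-fold lower (3.95 to 4.68), and FHL2 2314, 2280.3 and 2151 and 657, 651 and 695, 3.36-fold lower (3.20 to 3.52). The order of these folds left FHL2 with 45.7% (44.8 to 46.6) of FHL counts in the control and 60.6% (59.1 to 62.1) with the donor. The tensins carry beta 1 integrins along actin fibres. TNS1 (chromosome 15, 119948133 to 120143797) had 1394, 1246 and 1334 in the control and 149, 140.4 and 152 with the donor, 8.99-fold lower (8.21 to 9.87). TNS2 had 174, 176 and 193 in the control and 92.0, 88.4 and 85.5 with the donor, 2.05-fold lower (1.77 to 2.37). TNS2 was only just past the size rule, at −1.04, and short of it at −0.98 without control column 3, at −0.99 under TMM scaling and at −0.44 under total count scaling. Of tensin counts TNS1 held 87.8% (86.7 to 88.8) in the control and 62.3% (58.9 to 65.5) with the donor; TNS3 had 2 and 7 counts, too few to assess.

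**Figure D3:**
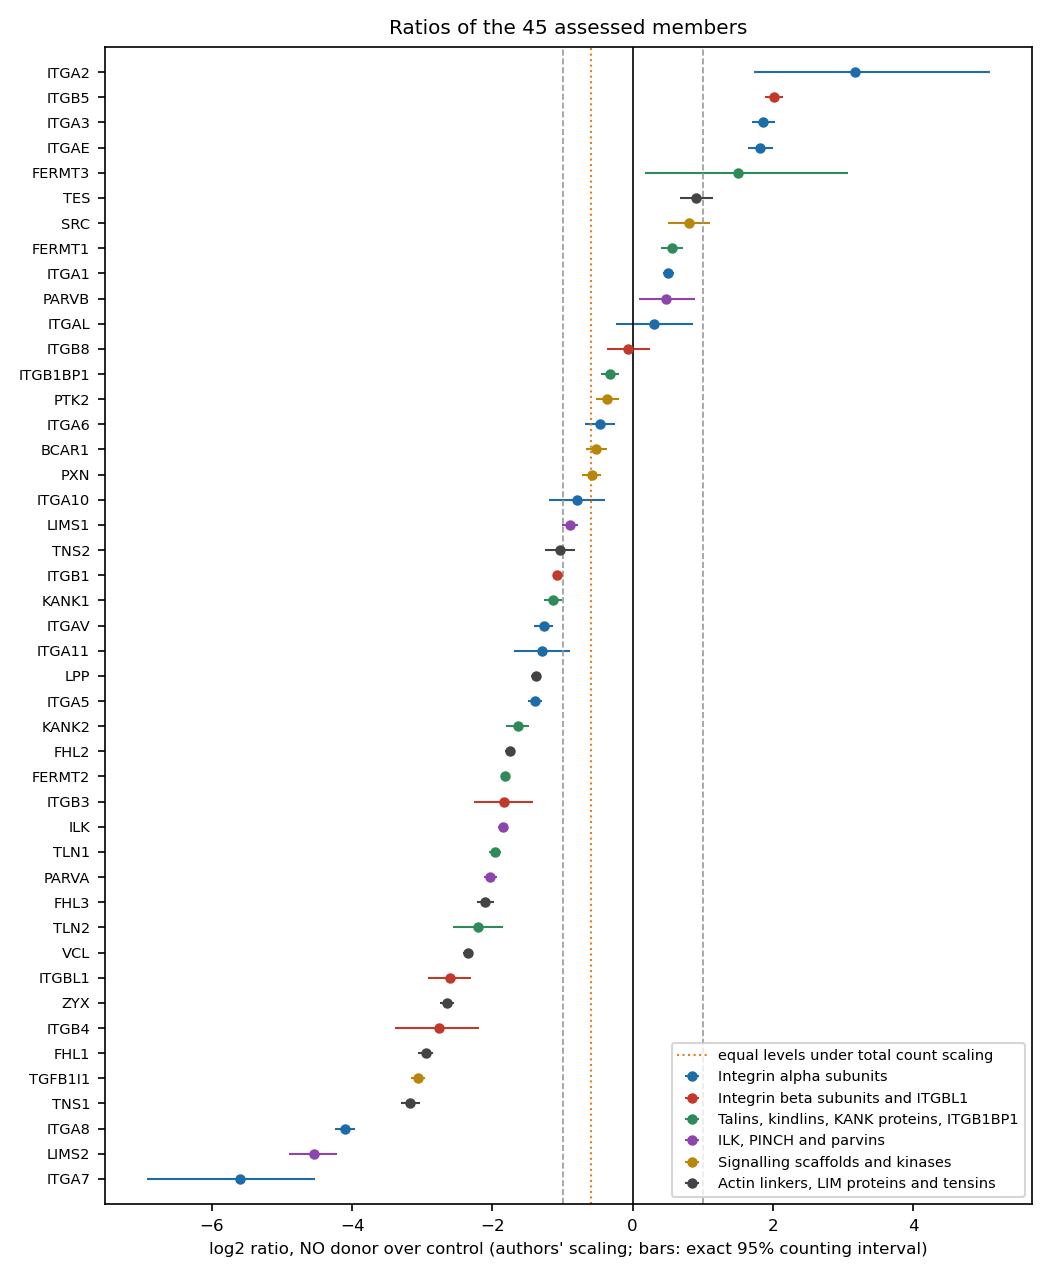
Log2 ratio of NO donor over control (x axis, authors' scaling) for the 45 assessed members in rank order, coloured by role; bars are exact 95% counting intervals, dashed lines the size rule, and the dotted line the ratio that total count scaling sets to 0. Ratios run from −5.60 for ITGA7 to 3.17 for ITGA2, and PXN and BCAR1 lie beside the dotted line.

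Other genes of adhesion complexes, taken as a list of 57 with a row and 56 assessed, were called lower in 21, beside 18.4% of all genes, and higher in 6, beside 13.2%. The median of the list was −0.70 log2 units; scaling by total counts moved the median to −0.11 and left 12 lower, beside 10.5%, and 8 higher, beside 33%. The counts of higher genes in the list were thus not above those of all genes. The largest differences at 300 or more counts were those of SORBS3, the vinculin partner vinexin, at 8.30-fold lower (7.59 to 9.09), CSRP1, a LIM protein of smooth muscle, at 8.27-fold lower (7.72 to 8.86), ACTN1, alpha-actinin, at 7.56-fold lower (7.23 to 7.90), and PDLIM7, a LIM protein of stress fibres, at 6.65-fold lower (6.43 to 6.88). The variance between control columns was 12.7 times that of counting for PDLIM7 and 4.11 times for ACTN1, where it was 4.52 times with the donor. The 6 called higher were AJUBA, a zyxin relative, at 3.99-fold higher (3.37 to 4.74), the GTPase regulators RAPGEF1 and ARHGEF7 at 1.35 and 1.01 log2 units, the phosphatase gene PTPN12 at 1.32, PAK1 at 1.74 and the talin recruiter APBB1IP at 2.40. They were named after their values were seen. PAK1 and APBB1IP rest on 13 and 5 control counts.

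**Figure D4:**
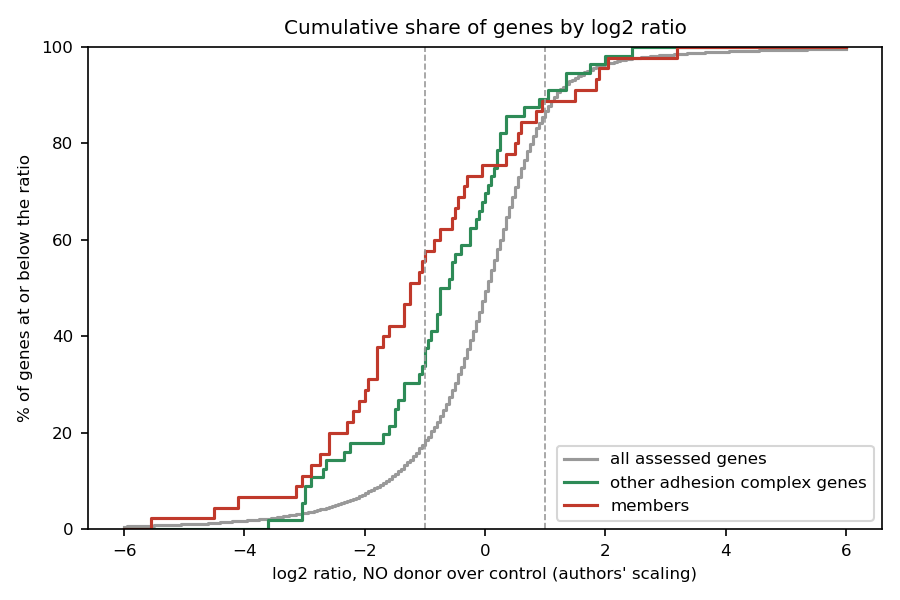
Cumulative share of genes, in %, at or below each log2 ratio of NO donor over control (authors' scaling), for all 12409 assessed genes (grey), the 56 other adhesion complex genes (green) and the 45 members (red); dashed lines mark the size rule. At the lower dashed line the shares are 18.4% of all genes and 26 of the 45 members, and the curves meet near the upper one.

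Promoters were read from RefSeq's Sscrofa11.1, as the 250 bases before the annotated start of each gene, since many adhesion genes are known targets of the actin-controlled factors SRF and YAP with TEAD. All 52 members had such a window. The searched motifs were the CArG box of SRF, the TEAD motif CATTCC and the AP-1 motif TGANTCA, on both strands, and no matches of different motifs overlapped in the members. A CArG box was found in 1 member, VCL, and in 1.27% of 20638 promoters of protein coding genes. A TEAD match was found in 6 of the 26 members called lower, ITGA7, LIMS2, VCL, TLN2, KANK1 and ITGB1, in 2 of the other 19 assessed ones, SRC and BCAR1, and in 10.4% of all promoters. An AP-1 match was found in ZYX alone, and in 5.47% of all promoters. These matches are descriptions of the annotated windows only.

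The promoters shown are the one with a CArG box, those of the 2 lowest members with a TEAD match, and that of ITGB5, the highest member with at least 300 counts, which held none of the motifs. They are written 5′ to 3′ on the strand of the gene, with matches in capitals. The VCL window is chr14:76699893-76700142, plus strand, with the CArG box at positions −206 to −197 from the start and TEAD matches at −122 to −117 and −53 to −48. The ITGA7 window is chr5:21150876-21151125, minus strand, the LIMS2 window chr15:59672258-59672507, plus strand, and the ITGB5 window chr13:135467861-135468110, plus strand. The GC share was 83.6% in the ITGB5 window and 44.0% in that of ITGA7.
VCL: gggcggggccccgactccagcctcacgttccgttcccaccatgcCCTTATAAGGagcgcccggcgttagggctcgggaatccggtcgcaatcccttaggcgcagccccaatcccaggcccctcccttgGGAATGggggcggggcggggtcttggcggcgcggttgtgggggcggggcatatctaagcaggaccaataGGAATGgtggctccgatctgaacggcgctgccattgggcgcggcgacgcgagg
ITGA7: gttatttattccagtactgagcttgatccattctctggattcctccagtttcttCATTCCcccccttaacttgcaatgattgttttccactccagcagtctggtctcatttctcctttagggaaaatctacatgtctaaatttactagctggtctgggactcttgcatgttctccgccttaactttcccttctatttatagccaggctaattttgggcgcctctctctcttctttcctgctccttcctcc
LIMS2: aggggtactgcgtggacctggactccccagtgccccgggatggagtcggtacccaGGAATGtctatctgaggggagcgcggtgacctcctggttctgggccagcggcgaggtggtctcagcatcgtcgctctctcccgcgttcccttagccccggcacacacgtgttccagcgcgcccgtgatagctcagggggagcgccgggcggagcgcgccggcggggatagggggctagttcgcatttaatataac
ITGB5: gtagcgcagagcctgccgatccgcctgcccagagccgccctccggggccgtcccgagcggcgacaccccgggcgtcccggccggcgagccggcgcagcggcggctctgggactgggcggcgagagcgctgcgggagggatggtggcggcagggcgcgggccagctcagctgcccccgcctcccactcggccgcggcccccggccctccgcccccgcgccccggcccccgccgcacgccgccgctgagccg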

How the data were processed

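Single-cell libraries of porcine valve interstitial cells were made by the submitters, and the values used here come from their table of NO donor against control. Cell Ranger, Seurat 3.0, DESeq2 and the build Sscrofa11.1 are named per the submitters' processing notes, without their roles. The deposited table holds a normalised count signal in 3 columns per library, and the authors' mean level, log2 fold change, its standard error and test score, and p-values with adjusted p-values. How the columns were made, and whether counting used strand, is not given in the sources used here.

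Dividing by the step of 1 count gave whole counts for 100.0% of values within 0.01, which sum to 21807024 for the control and 21289316 for the NO donor. Counts of the 3 columns were summed per library. The log2 ratio is NO donor over control after the authors' size factors, with an exact (Clopper-Pearson) 95% interval. No count test was run on the recovered counts, because the columns are parts of 1 library per group, and intervals cover counting error only. Genes with at least 30 counts over both libraries were assessed, and the size rule was an absolute log2 ratio of 1. All assessed members are named. Other genes were named by the 4 largest absolute log2 ratios at 300 or more counts per list, with exceptions stated. The members and lists were chosen with earlier results of these data known. The calculation was run on simulated data with counting error only, so that run does not cover the further variance between columns. Alternatives were total count scaling, TMM scaling (edgeR 4.0.16 in R 4.3.3), other minimum counts, a size rule of 0.5, the deposited fold change, and leaving out each column. Python 3.11.15, numpy 2.4.6, scipy 1.17.1 and pandas 2.3.3 were used. The 2 other libraries were not analysed here.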

Additional observations from a re-analysis of the deposited data

How the results depend on the processing

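Under total count scaling 10 members were called higher, beside 33% of all genes, and the median log2 ratio was −0.68. With a size rule of 0.5 the count of higher members was 9 and of lower ones 30 of 45, beside 29% and 30.3% of all genes. With at least 300 counts 3 of 36 members were higher, beside 11.8%. Across all alternatives run, the members called lower ranged from 19 of 45 (total count scaling) to 30 of 45 (size rule of 0.5). The shares of all genes at these settings were 10.5% and 30.3%. TMM scaling gave 25 lower and 5 higher, beside 17.6% and 14.3% of all genes, and a median of −1.23. Leaving out 1 column at a time gave 25 to 26 lower, beside 18.3 to 18.5% of all genes. It gave 4 to 5 higher, beside 13.3 to 13.4%, and medians of −1.29 to −1.16, and changed the calls of FERMT3 and TNS2. Total count scaling moved 42 member values outside their counting intervals and TMM scaling 1. Under total count scaling 6 members short of the size rule turned sign. Called members could not turn sign, since these scalings add 0.60 and 0.04, less than the size rule of 1. The part of the scaling that reflects cell number, RNA per cell or depth was not tested. No paired analysis was possible because each group had 1 library. Depth limits ITGA2, FERMT3 and ITGA7, which rest on fewer than 10 counts in 1 library, and the 7 members not assessed.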

Other observations

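Matrix ligands of the integrins were lower with the donor in 12 of 24 assessed genes, beside 18.4% of all genes, and higher in 1, beside 13.2%, and their median was −0.88 log2 units; under total count scaling the counts were 8 and 2, beside 10.5% and 33%, and the median −0.28. POSTN, periostin, had 3 counts with the donor and 399 without it, or −7.62 (−9.90 to −6.06) log2 units. COL1A1, a chain of the main fibrillar collagen, was 20.1-fold lower (19.6 to 20.6), and THBS1, thrombospondin-1, 12.9-fold lower (12.7 to 13.2). SPP1, osteopontin, an RGD ligand, was the 1 gene called higher, at 32.4-fold higher (25.6 to 41.7). FN1, fibronectin, the ligand of the ITGA5 receptor, was 2.85-fold lower (2.81 to 2.90), and NPNT, nephronectin, a ligand of the ITGA8 receptor, 2.56-fold lower (1.96 to 3.35); total count scaling put them at −0.92 and −0.76 log2 units, short of the size rule. TNC, tenascin-C, had a log2 ratio of 0.03 (−0.03 to 0.09), and MFGE8, an RGD ligand, 0.45 (0.40 to 0.51), which total count scaling moved to 1.05. The intervals do not cover the variance between columns, which for THBS1 was 76.8 (NO donor) and 46.8 (control) times that of counting, for the NO donor columns of SPP1, TNC and MFGE8 35.7, 5.31 and 5.28 times, and for the control columns of COL1A1 6.09 times. FN1, NPNT, TNC and MFGE8 were named for their receptors after their values were seen.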
